A study of Mus musculus with 4 samples.

Results

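The expression of 4 chemokine genes (Cxcl1, Cxcl2, Cxcl3 and Pf4) and 2 chemokine receptor genes (Cxcr2 and Cxcr4) was examined in immune cells sorted from murine skin and from skin tumors. These 6 genes were taken by name from the 31053 genes in the count matrices, and all 6 were found. Control skin gave 2 libraries from uninoculated C57/BL6 mice, and tumors were the grafts that the 2323 cell line formed in the flank of the same strain, with 2 libraries as well. The 2323 line is a single line, grown from a grafted tumor of a mouse with K14rtTA, tetOCre and P53-/- among its alleles, in which the keratin 14 promoter drives rtTA, and rtTA with its inducer switches on Cre. All grafts therefore share 1 tumor genotype, and the hosts of both groups were wild type. Both sexes were used in the study, but the labels do not give the sex or the number of mice behind a library. Viable CD45+ cells were sorted and profiled with 10x 3' single-cell RNA sequencing.

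Neutrophils follow gradients of short secreted chemokines into inflamed tissue. Cxcl1, Cxcl2 and Cxcl3 bear the glutamate-leucine-arginine motif that binds CXCR2, the main chemokine receptor of mouse neutrophils, and their genes are switched on quickly by NF-kB after interleukin-1, tumor necrosis factor or microbial signals. Pf4 (Cxcl4) lacks that motif, is stored in platelets and is also made by some tissue macrophages. Cxcr4, the receptor for Cxcl12, is carried by most leukocytes and holds immature and aged neutrophils in the bone marrow, where it acts against Cxcr2.

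The 4 ligand genes lie on chromosome 5 in GRCm38, the build of the count matrices, within 133504 bases and all on the plus strand. Pf4 (ENSMUSG00000029373, 3 exons) spans chr5:90772435-90773383, Cxcl3 (ENSMUSG00000029379, 4 exons) chr5:90786103-90789600, Cxcl1 (ENSMUSG00000029380, 4 exons) chr5:90891241-90893115 and Cxcl2 (ENSMUSG00000058427, 4 exons) chr5:90903871-90905938. The end of Cxcl1 and the start of Cxcl2 are 10756 bases apart. Both receptor genes lie on chromosome 1, Cxcr2 (ENSMUSG00000026180, 3 exons, plus strand) at chr1:74153989-74161246 and Cxcr4 (ENSMUSG00000045382, 2 exons, minus strand) at chr1:128588199-128592293.

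The promoters of the 3 CXCR2 ligands are shown because these genes share a motif that the other 3 lack. In the RefSeq promoter table for GRCm38.p6, all 6 genes were matched. The letters GGAANTTCC, a common form of the NF-kB site that reads the same on both strands, were searched for on both strands in the 250 bases before each start. They were present in Cxcl1, Cxcl2 and Cxcl3, absent from the windows of Pf4, Cxcr2 and Cxcr4, and present in 267 of 32851 promoters (0.813%). The stretch from 110 to 31 bases before the RefSeq start is printed 5′ to 3′ on the plus strand, with the match in capitals. A match is a description of letters and was not tested for binding.
Cxcl1, chr5:90891135-90891214: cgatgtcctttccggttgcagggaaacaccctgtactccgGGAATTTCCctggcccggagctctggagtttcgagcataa
Cxcl2, chr5:90903789-90903868: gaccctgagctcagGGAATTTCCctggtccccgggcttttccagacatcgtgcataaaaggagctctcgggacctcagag
Cxcl3, chr5:90785991-90786070: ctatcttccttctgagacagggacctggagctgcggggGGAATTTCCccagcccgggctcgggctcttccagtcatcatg
The match began 70 bases before the start in Cxcl1, 96 in Cxcl2 and 72 in Cxcl3, and its 9 letters were the same in all 3 genes.

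The 4 libraries held 14795 barcodes, of which 12848 passed the filters on genes, UMIs, mitochondrial share and complexity. Control skin kept 2981 and 3089 cells and skin tumors 4784 and 1994, and the median UMIs per kept cell ran from 10610 to 13361.5. A UMI is a molecular barcode that counts 1 captured RNA molecule. Each cell was assigned by marker genes, none of which was one of the 6 genes, and 8739 cells (68.0%) were assigned to 1 of 16 classes. Of the barcode sequences, 23 occurred in more than 1 library. Levels are given as UMIs of the gene per 10,000 UMIs of the class, summed over its cells in a library, in the order control skin 1, control skin 2, skin tumor 1, skin tumor 2. Over all kept cells Xist, an RNA of female cells, was at 0.0005, 0.0002, 0.0045 and 0.0059. The Y-linked genes Ddx3y, Eif2s3y, Kdm5d and Uty together were at 9.45, 8.08, 3.17 and 4.05. Every library thus had the pattern of male cells.

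The composition of the sort differed widely between the groups. Neutrophils numbered 13, 62, 115 and 105, macrophages 45, 142, 1702 and 527, and monocytes 31, 114, 407 and 179. Langerhans cells (399, 355, 1 and 6) and dendritic epidermal T cells, or DETC (567, 659, 12 and 21), were nearly confined by count to the control libraries. The Neutrophil marker list reached 591, 482, 414 and 312 per 10,000 in the neutrophil class, with none of its 7 genes at 0. A class defined by collagen transcripts held 2, 6, 64 and 106 cells, although the sort was for CD45. Its Ptprc (CD45) level in the tumors was 0.136 and 0.0502 per 10,000, and Krt14 and Krt5 were at 0 there. Col3a1 was found in 62 of 64 and 105 of 106 of these tumor cells, and Cdkn2a in 60 and 104. Col1a2 was found in 0 and 6, Dcn in 18 and 40 and Pdgfra in 15 and 16. The study read a cluster high in Col3a1, Col6a1 and Col6a2 as apparent fibroblast contamination and excluded it. Whether that cluster held the same cells, and what type of cell they are, was not tested. The class is thus called here only by its rule, the collagen-positive class.

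**Figure D1:**
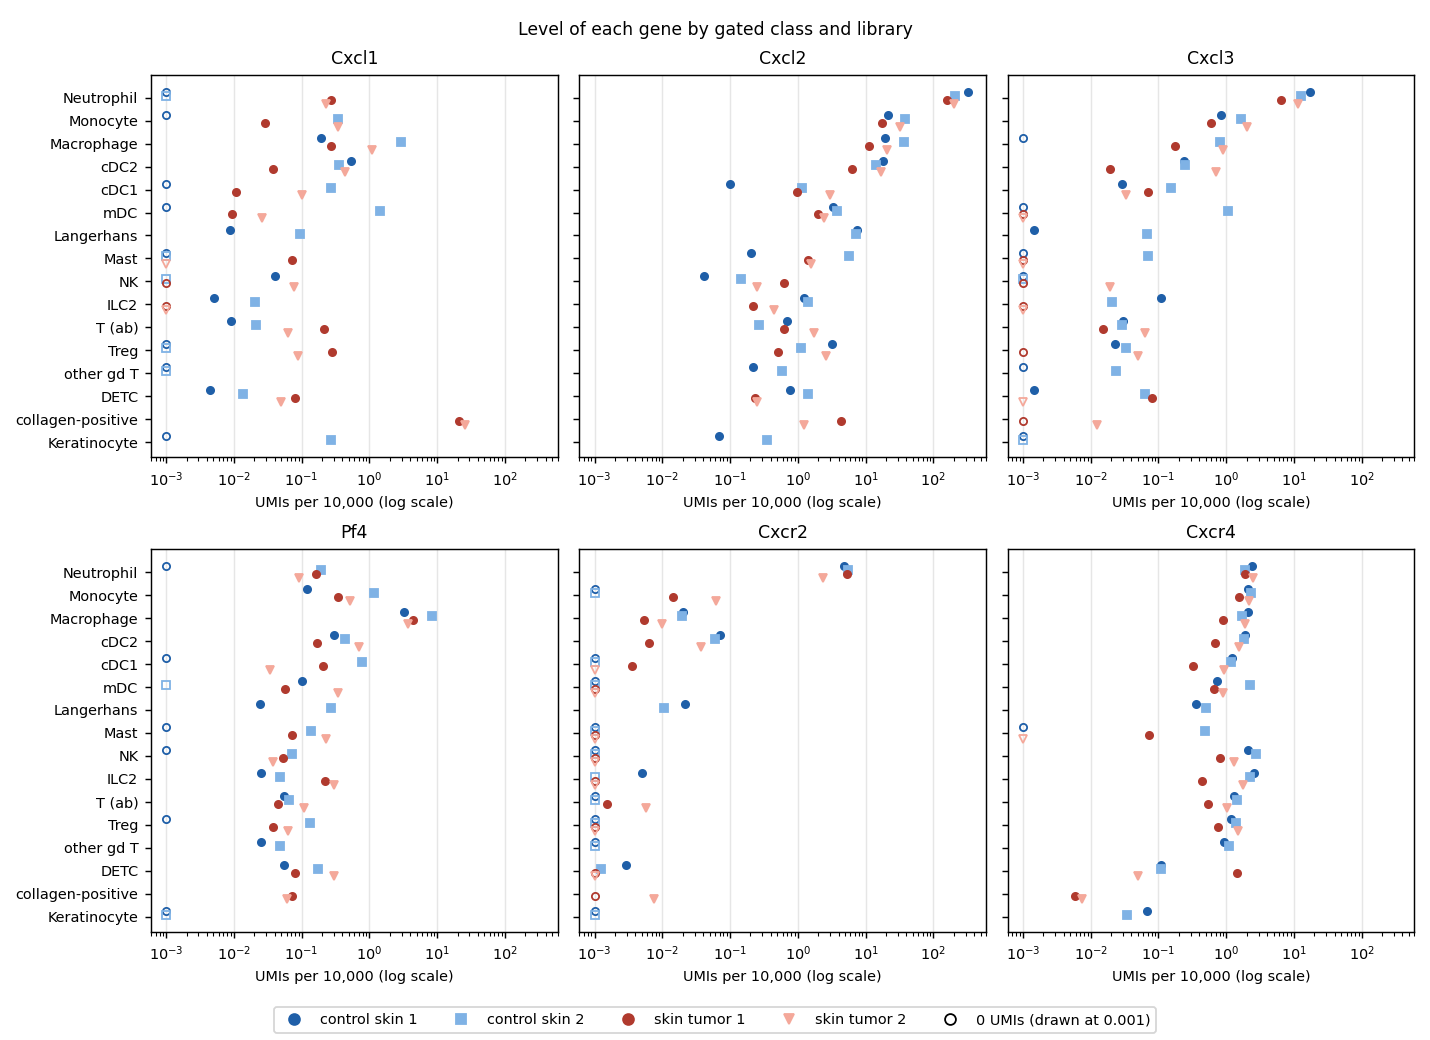
UMIs per 10,000 (log axis) of each of the 6 genes by marker-gated class, 1 symbol per library, blue for control skin and red for skin tumor, with open symbols at 0.001 for 0 UMIs. Neutrophils lead for Cxcl2, Cxcl3 and Cxcr2, macrophages for Pf4 and the collagen-positive class of the tumors for Cxcl1, and Cxcr4 is spread over most leukocyte classes.

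Cxcl2 was highest in neutrophils in all 4 libraries, in control skin as in tumors. Its neutrophil level was 331, 206, 159 and 202 per 10,000 (mean 269 ± 88.0 in control skin and 180 ± 30.5 in tumors, SD, n = 2). The lowest of these values exceeded the highest monocyte value, and the ranges of monocytes, macrophages, conventional dendritic cells type 2 (cDC2) and Langerhans cells overlapped from each neighbor to the next.
Monocytes, the blood-derived precursors of many tissue macrophages, had 21.3, 38.4, 17.5 and 32.2 per 10,000. Macrophages had 19.5, 36.4, 11.2 and 20.9. In both classes control skin 2 was highest and skin tumor 1 lowest. cDC2, which present antigen to CD4+ T cells, had 18.2, 14.1, 6.37 and 16.7, and Langerhans cells, the dendritic cells of the epidermis, had 7.42 and 7.26 in the control libraries. The Cxcl2 ranges of Langerhans cells and of mature dendritic cells (mDC; 3.27, 3.81, 1.99 and 2.43) did not overlap.

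Within a class Cxcl2 was uneven from cell to cell. The median neutrophil held 286, 207, 126 and 165 per 10,000, and the 10% of neutrophils with most Cxcl2 held 19.5%, 24.4%, 37.4% and 27.1% of the level summed over cells. In macrophages the top 10% held 39.8%, 55.4%, 65.0% and 43.8%, and in monocytes 54.7%, 54.7%, 71.8% and 49.9%. The top 10% thus held a smaller share in neutrophils than in macrophages or monocytes of the same library. After thinning every cell to 1000 UMIs, Cxcl2 was detected in 84.6%, 95.2%, 89.6% and 97.1% of neutrophils and in 48.9%, 55.6%, 29.7% and 53.9% of macrophages. The same share was 3.34%, 3.47%, 1.95% and 5.95% in T cells, the class taken as lacking the gene. Before thinning, Cxcl2 was found in 92.3%, 100%, 94.8% and 98.1% of neutrophils (median 2995 to 4310.5 UMIs per cell), in 82.2%, 76.8%, 52.3% and 82.4% of macrophages, in 77.4%, 70.2%, 44.7% and 78.8% of monocytes, and in 10.3%, 20.8%, 11.9% and 30.3% of T cells (median 8166 to 9401.5).

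Free Cxcl2 RNA was read from its level in lymphoid cells. T cells, DETC and group 2 innate lymphoid cells (ILC2) together held 0.832, 1.26, 0.622 and 1.53 UMIs of Cxcl2 per 10,000, far under every neutrophil, monocyte, macrophage and cDC2 value. As a share of the neutrophil level of the same library, T cells held 0.210%, 0.131%, 0.398% and 0.851% of Cxcl2. They held at most 0.0253% of S100a9, another abundant neutrophil transcript. The lymphoid gates barred cells with 20 or more UMIs per 10,000 of S100a8 and S100a9 together, so that share was limited in advance. For Il1b, an inflammatory cytokine gene that no gate used, the shares were 0.0462%, 0.0939%, 0.160% and 2.33%. Part of this lymphoid signal sat in single cells. In DETC of control skin 1 the highest cell held 305 of 524 Cxcl2 UMIs, in those of control skin 2 it held 356 of 1116, and in T cells of skin tumor 1 it held 206 of 415. The DETC with 5 or more Cxcl2 UMIs had 12 and 19.6 UMIs per 10,000 of Lyz2, a lysozyme gene of myeloid cells, in control skin 1 and 2, against 0.379 and 0.845 in the other DETC. In the other lymphoid cells with 5 or more Cxcl2 UMIs, Lyz2 went the opposite way, from only 2, 1 and 1 UMIs. It was at 0.294 against 0.616 in T cells of skin tumor 1. In ILC2 of control skin 1 and 2 it was at 0.0987 against 0.143 and 0.124 against 0.449. Il1b in the same order was at 0.294 against 0.103 (2 UMIs), 2.67 against 0.0159 (27 UMIs) and 0 against 0.029. S100a9 was at 0.147 against 0.0169 (1 UMI), 0.889 against 0.0053 (9 UMIs) and 0 against 0.0362. After the 2% of cells highest in Cxcl2 were left out, T cells held 0.105, 0.220, 0.0871 and 0.463 per 10,000 and DETC 0.108, 0.318, 0.0928 and 0.207. The part of cell doublets in these single cells was not tested.

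**Figure D2:**
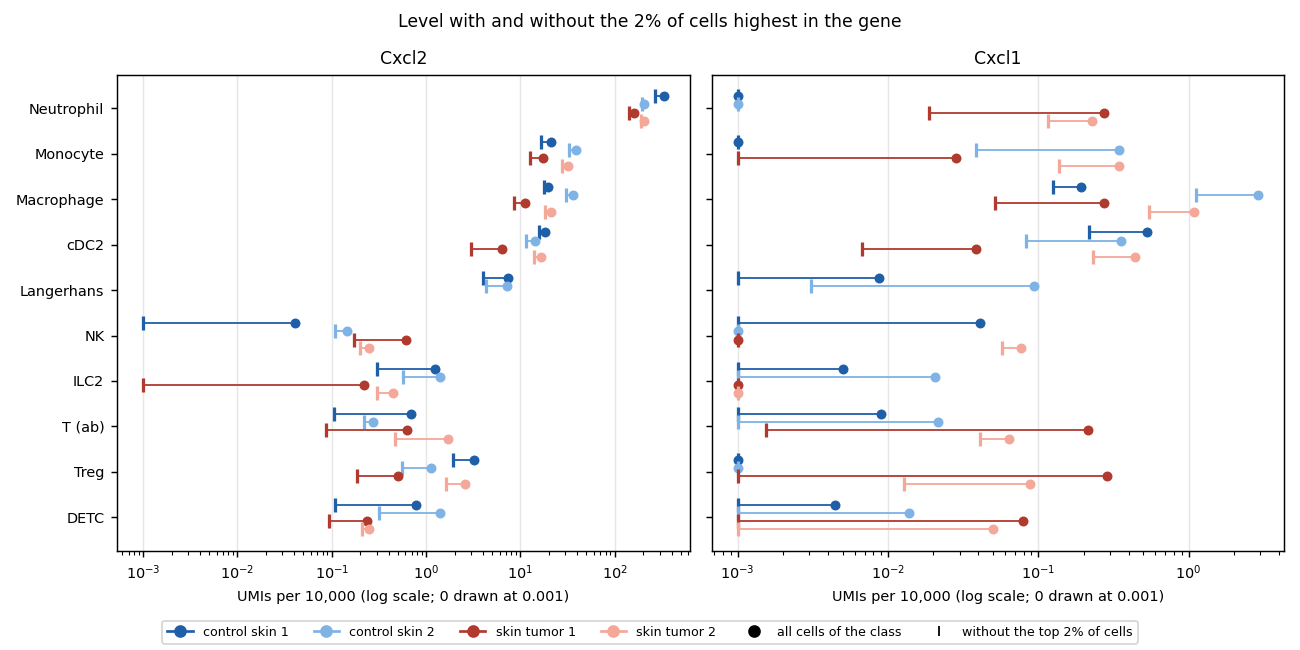
UMIs per 10,000 (log axis, 0 drawn at 0.001) of Cxcl2 and Cxcl1 by class and library, with all cells (dots) and without the 2% of cells highest in the gene (ticks). Neutrophil Cxcl2 moves little, whereas Cxcl2 in T cells of skin tumor 1 drops from 0.633 to 0.0871.

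The tumor was then compared with control skin within each class, on UMIs summed per library, with edgeR's quasi-likelihood test and Benjamini-Hochberg adjustment over all genes of that class. The log2 difference is tumor minus control, with its standard error (SE). Over 12 classes, 41 gene-by-class fits of the 6 genes could be made. In these fits 2 were called at an adjusted p of 0.05, 31 estimates were below 0 and 10 above. The fits share the same libraries and genes, so these are not counts of independent results. At an unadjusted p under 0.05 there were 3 of 3 tested genes in group 2 innate lymphoid cells (19.0% of all genes), 2 of 4 in T cells (27.1%), and 1 in each of neutrophils (6.60%), type 1 (21.9%) and type 2 (25.04%) conventional dendritic cells, mature dendritic cells (20.5%), DETC (9.20%) and natural killer cells (14.4%). There were 0 in macrophages (12.04%), monocytes (10.9%), mast cells (20.1%) and regulatory T cells (19.3%). DESeq2 called 1 of the class fits, Cxcl1 in T cells, where it called 7.37% of 11206 genes. With 2 libraries a group, p-values measure the spread between these libraries, which may be technical. An exact permutation test of 2 against 2 cannot go below 0.333. By order alone, both tumor values would lie above or below both control values in 33.3% of genes.

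In neutrophils none of the 4 genes tested was called, where 0.0762% of 3937 genes tested were. Cxcl2 was lower in both tumor libraries than in both control libraries, and so was Cxcl3, but neither passed the test. The Cxcl2 difference was -0.65 (SE 0.31, edgeR adjusted p = 0.749). The neutrophil median of the 4 genes was -0.57, beside 0.03 for all genes tested. Control skin 1 held only 13 neutrophils, and without it the Cxcl2 difference was -0.27.

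In macrophages none of the 6 genes was called, against 0.684% of 11838 genes. The macrophage Cxcl2 difference was -0.95 (SE 0.43, edgeR adjusted p = 0.439), and the control and tumor ranges overlapped because control skin 1 lay below skin tumor 2. Without skin tumor 2, which leaves a lone tumor library with no spread of its own, the Cxcl2 difference was -1.55. The median of the 6 genes in macrophages was -0.82, beside 0.02 over all genes. In monocytes 0 of 5 genes were called (0.1% of 8972 genes), with a Cxcl2 difference of -0.38 (SE 0.38, edgeR adjusted p = 0.775). In cDC2 0 of 5 were called (7.33% of 8679 genes), with a Cxcl2 difference of -0.73 (SE 0.40, edgeR adjusted p = 0.299). The cDC2 difference was -1.61 without skin tumor 2. In mDC 0 of 2 were called (5.84% of 4883 genes), and Cxcl2 differed by -0.77 (SE 0.29, edgeR adjusted p = 0.176).

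Cxcl2 passed the test in ILC2, an innate lymphocyte that makes type 2 cytokines, where 1 of 3 genes tested was called (5.15% of 7129 genes). The ILC2 level was 1.25, 1.42, 0.219 and 0.446 per 10,000, and the groups did not overlap. Cxcl2 fell by 2.16 on the log2 scale (SE 0.59, edgeR adjusted p = 0.0376). ILC2 were among the classes from which the free RNA level was read, and beside that pooled lymphoid level of 0.832, 1.26, 0.622 and 1.53 their values lay slightly above it in control skin and below it in the tumors. The call rests on 455 UMIs in control ILC2 and 4 in tumor ILC2, a ratio of tumor to control of 0.268 (0.0728 to 0.692, 95% exact interval for counting error only). In control skin 1, 5 cells held 211 of the 248 UMIs, and in control skin 2, 6 cells held 162 of 207. Without the 2% of cells highest in Cxcl2, the levels were 0.304, 0.566, 0 and 0.304 and the difference of -1.48 was not called (edgeR adjusted p = 0.508). The tumor libraries held 11 and 16 ILC2, with a median of 3308 and 2846.5 UMIs per cell against 8552 and 8505.5 in control skin. The Cxcl2 difference was above 0 in T cells (1.04, SE 0.55, edgeR adjusted p = 0.272) and type 1 conventional dendritic cells (1.35, SE 0.83, edgeR adjusted p = 0.389). In DETC, another of the free RNA classes, it was -2.33 (SE 0.56, edgeR adjusted p = 0.535). It was -0.94 in mast cells (SE 0.74) and -0.59 in regulatory T cells (SE 0.57), with edgeR adjusted p of 0.522 and 0.643.

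**Figure D3:**
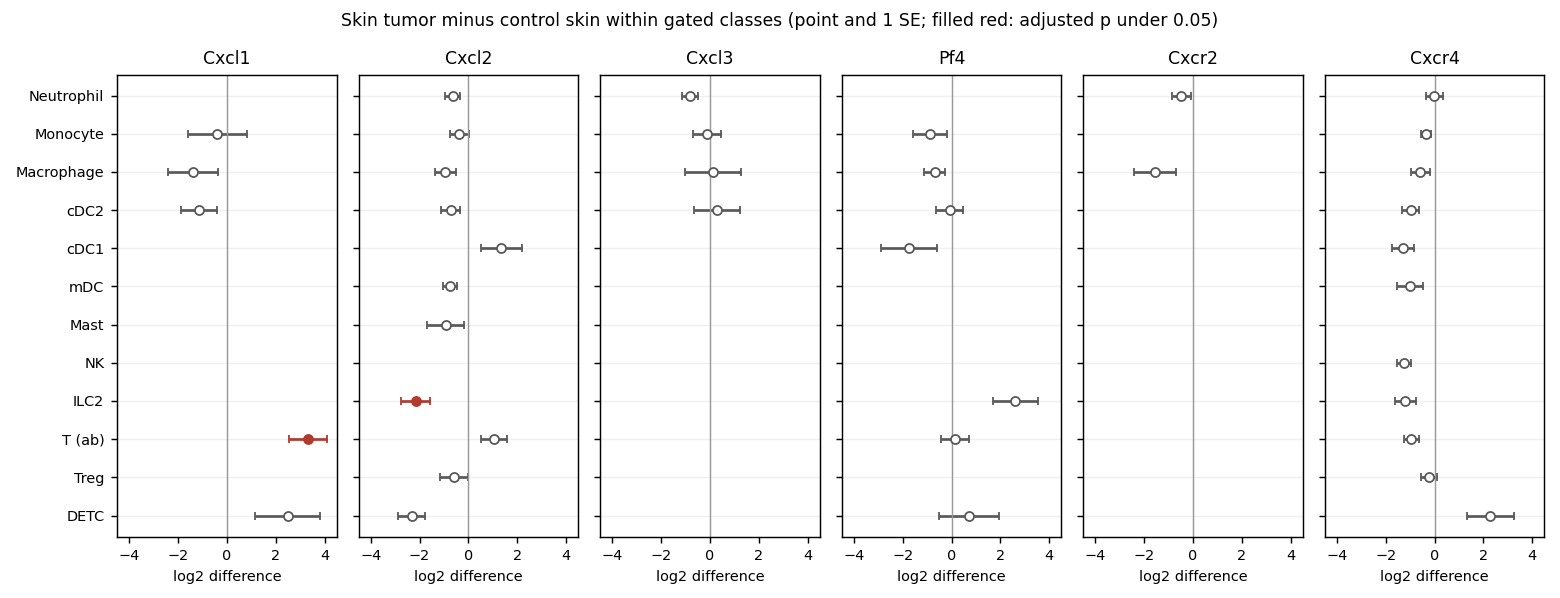
Log2 difference, skin tumor minus control skin, of each gene in each class where it could be tested, with bars of 1 SE and filled red points for called results; the Cxcl3 estimate in DETC (SE 3.65) is left out. Most estimates lie below 0, from fits that share the same libraries, and the 2 called results are Cxcl1 in T cells and Cxcl2 in ILC2.

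Cxcl3, another CXCR2 ligand, had the same 3 leading classes as Cxcl2. Neutrophils held 17.4, 12.9, 6.49 and 11.4 per 10,000, and monocytes 0.850, 1.66, 0.604 and 2.01, without overlap between the classes. Macrophages held 0, 0.798, 0.173 and 0.892, and cDC2 held 0.240, 0.249, 0.0192 and 0.711. Skin tumor 1 was the lowest library for neutrophils, monocytes and cDC2. The neutrophil difference was -0.82 (SE 0.33, edgeR adjusted p = 0.722), with both control values above both tumor values. The monocyte difference was -0.13 (SE 0.56, edgeR adjusted p = 0.963) and the macrophage difference 0.11 (SE 1.14, edgeR adjusted p = 0.993). Without skin tumor 2 the Cxcl3 difference was -1.21 in monocytes and -1.62 in macrophages. At full depth, Cxcl3 was found in 0%, 14.7%, 8.99% and 27.4% of macrophages with Cxcl2 and in 0%, 3.03%, 1.23% and 1.08% of those without it. Depth was not matched between these cells.

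Cxcl1 did not share this pattern. The collagen-positive class of the tumors held 21.1 and 25.4 per 10,000, and its lowest value exceeded the highest macrophage value. Macrophages held 0.192, 2.91, 0.272 and 1.08, and cDC2 0.527, 0.354, 0.0383 and 0.441. Among the immune classes, Cxcl1 was therefore low in all libraries, with control skin 2 macrophages the highest sum. After thinning to 1000 UMIs, Cxcl1 was found in 48.4% and 66.0% of collagen-positive tumor cells, and at full depth in 70.3% and 93.4%. Their median depth was 25428.5 and 36563.5 UMIs. The same class in control skin, with 2 and 6 cells, had no Cxcl1 UMI, so that no comparison between the groups was made in it. In the collagen-positive tumor cells Ccl2, which draws monocytes through CCR2, stood at 10.2 and 21.4 per 10,000, while Cxcl5, another CXCR2 ligand, stood at 0.0414 and 0.0653.

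In macrophages the Cxcl1 difference was -1.40 (SE 1.03, edgeR adjusted p = 0.681). It was -2.80 without skin tumor 2 and 1.74 without control skin 2. At full depth, macrophages with Cxcl2 held Cxcl1 more often than those without it in 3 of the 4 libraries. The shares were 10.8%, 23.9%, 11.5% and 29.7% against 12.5%, 3.03%, 2.22% and 6.45%. The 12.5% of control skin 1 is 1 cell with Cxcl1 beside 7 without it, and depth was not matched between these cells. In neutrophils Cxcl1 was at 0, 0, 0.272 and 0.227 per 10,000, from 0 UMIs in control skin and 25 in tumors. Against the floor of 3 UMIs over both control libraries (0.0800 per 10,000), the pooled tumor level of 0.252 was 3.15-fold higher. The counting error of the 25 tumor UMIs is not in that ratio. The pooled lymphoid level of Cxcl1 was 0.0058, 0.0157, 0.209 and 0.0601 per 10,000. In skin tumor 1 the neutrophil value lay close to it, and regulatory T cells there stood at 0.285. That lymphoid level of skin tumor 1 rested on 141 UMIs, most of them in 8 T cells described below. It is therefore not the level of most lymphoid cells there. The part of free RNA in neutrophil Cxcl1 was not tested.

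Cxcl1 was called in T cells, where 1 of 4 genes was called (9.46% of 10042 genes). Its T cell level was 0.00904, 0.0214, 0.213 and 0.0636 per 10,000, with both tumor libraries above both controls. It rose by 3.32 on the log2 scale (SE 0.77, edgeR adjusted p = 0.0414), on 6 UMIs in control skin and 151 in tumors, a ratio of 14.3 (6.44 to 39.7, counting error only). In skin tumor 1, 136 of the 140 Cxcl1 UMIs sat in 8 of 563 T cells, and skin tumor 2 held 11 UMIs in 11 cells. Those 8 cells had a median of 4146.5 UMIs against 9013 in the other T cells, and they held 1 UMI of Col3a1 and 0 of Col1a1. Their Cd3e, a T cell receptor subunit, was at 1.55 against 4.15 per 10,000 in the other T cells, their Lyz2 at 1.24 against 0.610 and their C1qa at 0.620 against 0.239, from 5, 4 and 2 UMIs in these cells. Without skin tumor 1 the difference was 2.08 and was not called (edgeR adjusted p = 0.200). Without control skin 1 it was 2.64 and without control skin 2 it was 3.78, fits with a lone control library that cannot decide the call.

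Pf4 was led by macrophages. They held 3.30, 8.48, 4.46 and 3.75 per 10,000, above the monocyte values of 0.119, 1.16, 0.346 and 0.509 without overlap. Control skin 2 was highest, and the other 3 libraries lay close to each other. The macrophage difference was -0.70 (SE 0.41, edgeR adjusted p = 0.588), and without control skin 2 it was 0.21. After thinning, 24.4%, 38.7%, 25.5% and 25.6% of macrophages held Pf4, beside 0.912%, 0.694%, 0.888% and 1.08% of T cells. At full depth these shares were 64.4%, 81.0%, 70.4% and 72.5% in macrophages, at a median of 15612.5 to 20849 UMIs per cell. Since Pf4 is also a platelet gene, a list of 9 other platelet genes, Ppbp among them, was read in macrophages, where it summed to 0.0404, 0.0350, 0.0489 and 0.0832 per 10,000 with 6, 6, 3 and 3 genes at 0. Ppbp, which platelets store with Pf4, was at 0.0202, 0.0195, 0.0166 and 0.0445 there.

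The Cxcr2 level of neutrophils stood far above that of every other class. It was 4.83 (95% exact Poisson interval 3.26 to 6.89), 5.50 (4.71 to 6.39), 5.42 (4.82 to 6.07) and 2.39 (1.95 to 2.89) per 10,000, intervals that cover counting error only. Skin tumor 2 stood below the other 3 libraries, which lay within each other's intervals. No other class passed 0.0719 per 10,000, the value of cDC2 in control skin 1. The neutrophil difference was -0.48 (SE 0.40, edgeR adjusted p = 0.860), and without skin tumor 2 it was 0.0058. Cxcr2 was found in 38.5%, 32.3%, 39.1% and 23.8% of neutrophils after thinning, and in no T cell. At full depth the neutrophil shares were 53.8%, 59.7%, 73.9% and 51.4%. Neutrophils of skin tumor 2 also had the lowest median depth, 2995 UMIs.

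Cxcr4 was spread over most leukocyte classes. Neutrophils held 2.41, 1.89, 1.88 and 2.48 per 10,000, monocytes 2.09, 2.29, 1.56 and 2.15, and macrophages 2.09, 1.73, 0.888 and 1.92. In the order of classes, neighbors overlapped except for the lowest pair, keratinocytes and the collagen-positive class. DETC of control skin stood low, at 0.109 and 0.108, while Langerhans cells stood at 0.353 and 0.498. Neutrophil Cxcr4 differed by 0.00 (SE 0.35, edgeR adjusted p = 1.00), and 2 SE on either side ran from -0.71 to 0.70.

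Cxcr4 was lower in both tumor libraries in 5 of the 12 fitted classes, without passing the test. Order alone would set the groups apart, in either direction, in 33.3% of genes. In these 5 classes 14.4% (natural killer cells) to 27.1% (T cells) of all genes had an unadjusted edgeR p under 0.05. Whether these classes differ from the others in Cxcr4 was not tested. Natural killer cells held 2.09, 2.79, 0.823 and 1.30 per 10,000 and differed by -1.26 (SE 0.28, edgeR adjusted p = 0.0539). No other of the 6 genes could be tested in NK cells (0 of 1 called, 1.89% of 5299 genes). T cells held 1.29, 1.42, 0.532 and 1.04 and differed by -0.95 (SE 0.31, edgeR adjusted p = 0.100). Type 1 conventional dendritic cells (cDC1), which cross-present antigen to CD8+ T cells, held 1.22, 1.18, 0.328 and 0.927 and differed by -1.30 (SE 0.46, edgeR adjusted p = 0.156; 0 of 3 genes called, 3.29% of 7618). The cDC2 values were 1.88, 1.84, 0.684 and 1.56, with a difference of -0.98 (SE 0.33, edgeR adjusted p = 0.117). ILC2 held 2.54, 2.22, 0.438 and 1.79 and differed by -1.21 (SE 0.43, edgeR adjusted p = 0.122). DETC went the other way in skin tumor 1 alone, at 0.109, 0.108, 1.43 and 0.05, with a difference of 2.29 (SE 0.98, edgeR adjusted p = 0.549) on 12 and 21 tumor cells. The macrophage difference was -0.58 (SE 0.38, edgeR adjusted p = 0.634) and the monocyte difference -0.36 (SE 0.21, edgeR adjusted p = 0.605).

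Skin tumor 1 was the lowest library for Cxcr4 in 10 of the 12 fitted classes, and skin tumor 2 lay above it in 10. Without skin tumor 2, the Cxcr4 difference was called in macrophages (-1.32, edgeR adjusted p = 0.0012), NK cells (-1.54), T cells (-1.49), cDC1 (-2.15), cDC2 (-1.72) and ILC2 (-2.89), and in the opposite direction in DETC (3.35, edgeR adjusted p = 0.0027). In those fits 3.09% (NK cells) to 27.9% (T cells) of all genes were called. The NK cell difference was also called without control skin 1 (-1.45, edgeR adjusted p = 0.0098), without control skin 2 (-1.08, 0.0444), under stricter gates (-1.49, 0.0222), with no filter on low counts (-1.23, 0.0018) and with the replicate block (-1.24, 0.0022). In 8 alternatives the NK cell difference stayed uncalled, among them DESeq2, RLE size factors, looser gates, no filter on cells and free RNA taken off. Without skin tumor 1, another of these 8, it was -0.93. The free RNA setting took off the pooled level of T cells, DETC and ILC2. For Cxcr4 that level was 0.834, 0.565, 0.548 and 0.967 per 10,000, which cannot be told apart from the Cxcr4 RNA of these cells themselves. For Cxcl2, skin tumor 2 lay above skin tumor 1 in 11 of 12 classes, and skin tumor 1 was lowest in 8. The 2 tumor libraries thus differed from each other in both genes across most classes. In the classes not yet named, 0 of 1 gene was called in mast cells (5.65% of 1948 genes), 0 of 2 in regulatory T cells (4.57% of 6889) and 0 of 5 in DETC (0% of 10252). In DETC 943 genes had an unadjusted p under 0.05 and DESeq2 called 133.

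**Figure D4:**
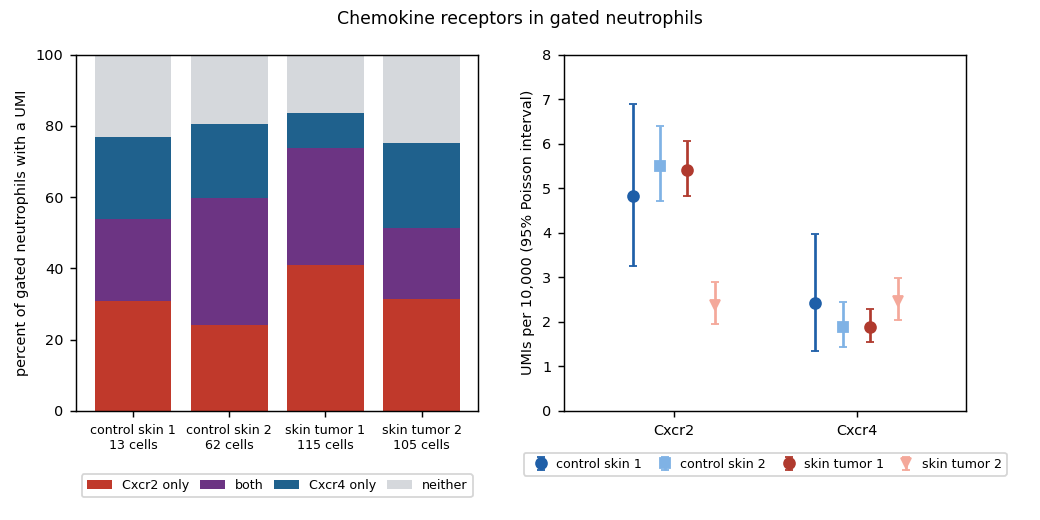
Left, percent of neutrophils with a UMI of Cxcr2 only, of Cxcr4 only, of both or of neither in each library, at full depth; right, UMIs per 10,000 of both receptors in neutrophils with 95% Poisson intervals. Between 20% and 35.5% of neutrophils held both receptors, and Cxcr2 was lowest in skin tumor 2.

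The 2 receptors were also read together within neutrophils. At full depth, both were found in 23.1%, 35.5%, 33.0% and 20% of cells. Cxcr4 was present in 42.9%, 59.5%, 44.7% and 38.9% of neutrophils with Cxcr2 and in 50.0%, 52.0%, 36.7% and 49.0% of those without it. The direction of this difference was not the same in all libraries, higher in control skin 2 and skin tumor 1 and lower in the other two.

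Over all sorted cells, changes in composition and in level per cell are mixed and cannot be told apart. The whole-sort level of Cxcl1 was 0.0828, 0.347, 0.785 and 3.71 per 10,000, and that of Cxcl2 was 6.30, 11.7, 9.88 and 18.9. Cxcl3 stood at 0.109, 0.339, 0.220 and 1.11, and Pf4 at 0.370, 1.09, 2.45 and 1.85. Cxcl1 and Pf4 were higher in both tumors than in both controls, and the other genes overlapped. Order alone would set the groups apart, in either direction, in 33.3% of genes. None of the 6 genes was called by edgeR, against 24.7% of 16543 genes, with 1 (Cxcl1) at an unadjusted p under 0.05, where 42.2% of all genes were. DESeq2 called Cxcl1 and Pf4, and 29.3% of 17671 genes. The difference was 3.20 for Cxcl1 (SE 1.05, edgeR adjusted p = 0.0873), 1.39 for Pf4 (SE 0.54, edgeR adjusted p = 0.126) and 1.39 for Cxcl3 (SE 0.93, edgeR adjusted p = 0.314). It was 0.51 for Cxcl2 (SE 0.45), 0.43 for Cxcr2 (SE 0.56) and 0.19 for Cxcr4 (SE 0.30), with edgeR adjusted p of 0.443, 0.602 and 0.668. The median of the 6 genes was 0.95, beside 0.06 over all genes.

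The source of the UMIs moved with composition. Macrophages held 2.43%, 5.80%, 51.3% and 36.1% of all UMIs and 7.53%, 18.1%, 58.0% and 39.8% of the Cxcl2 UMIs. Neutrophils held 0.153%, 0.706%, 0.770% and 1.31% of all UMIs and 8.02%, 12.4%, 12.4% and 14% of the Cxcl2 UMIs. Thus most classed Cxcl2 in the tumors came from macrophages, although the level per neutrophil UMI was higher. Langerhans cells gave 20.1% and 9.32% of Cxcl2 in control skin. Of the Cxcl1 UMIs, the collagen-positive class gave 63.3% and 81.2% in the tumors, where it held 2.36% and 11.9% of all UMIs. Macrophages gave 21.7%, 45.3%, 93.2% and 73.1% of Pf4, and neutrophils gave 38.5%, 68.0%, 75.9% and 51.2% of Cxcr2. Unassigned cells gave 43.3%, 38.0%, 13.5% and 26.5% of Cxcl2, so the class shares are lower limits.

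**Figure D5:**
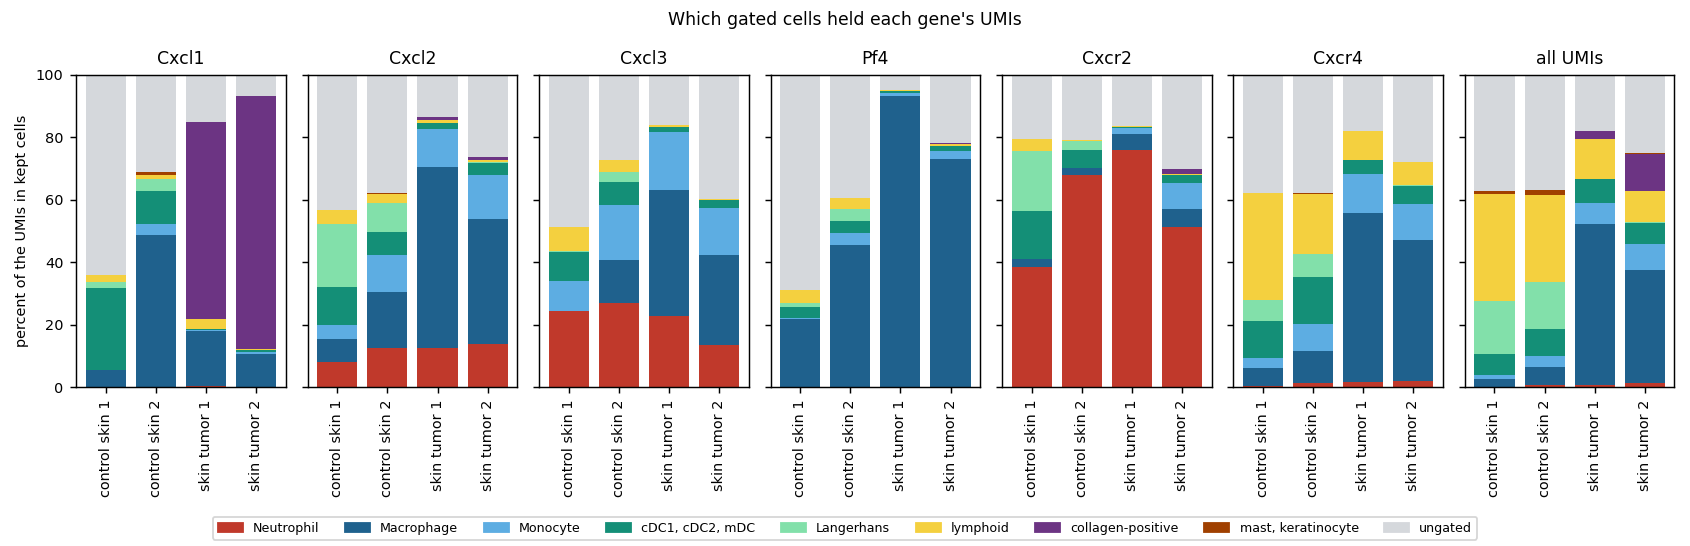
Percent of each gene's UMIs that came from each class in each library, as stacked bars, with the share of all UMIs on the right. In the tumors the macrophage share is 58.0% and 39.8% for Cxcl2 and 93.2% and 73.1% for Pf4, and the collagen-positive share of Cxcl1 is 63.3% and 81.2%.

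Whether the tumor effect differed between macrophages and another class was tested as an interaction, with a term for each library. For Cxcl2 the macrophage effect minus the neutrophil effect was -0.40 (SE 0.46, edgeR adjusted p = 0.969), that against monocytes -0.59 (SE 0.16, edgeR adjusted p = 0.274) and that against cDC2 -0.08 (SE 0.34, edgeR adjusted p = 0.966). Of the 6 genes, 1 was called against neutrophils (0.628% of 7642 genes), 0 of 5 against monocytes (0.0473% of 10561) and 0 of 6 against cDC2 (0.119% of 10101). At an unadjusted p under 0.05 there were 2, 1 and 0 of them, beside 6.46%, 9.02% and 9.77% of all genes. The called gene was Cxcl1, which had no UMI in control neutrophils.

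Genes around these chemokines were read from 10 lists. Of the inducers of neutrophil chemokines, 10 of 13 could be tested in macrophages, and 2 were called higher and none lower (0.684% of all genes were called). At an unadjusted edgeR p under 0.05, 3 were higher and 2 lower, beside 12.04% of all genes. Macrophage Il1b, the secreted interleukin-1 beta, was at 2.99, 3.05, 11.8 and 12.8 per 10,000 and rose by 1.88 on the log2 scale (SE 0.22, edgeR adjusted p = 0.0270). Il1a, the related alarm cytokine, was at 0.0908, 0.0856, 0.454 and 0.628 and rose by 2.47 (SE 0.32, edgeR adjusted p = 0.0315). Both tumor libraries lay well above both controls for Il1b and Il1a. Whether their change differed from that of Cxcl1, Cxcl2 or Cxcl3 was not tested. Without control skin 1 or control skin 2 the Il1b difference was 1.85 or 1.95 and that of Il1a 2.49 or 2.48. These fits have a lone control library, so they cannot decide whether the calls hold. In monocytes, Il1b was at 5.73, 3.85, 18.9 and 24.7 and differed by 2.09 without passing (edgeR adjusted p = 0.0527). In neutrophils Il1b was at 71.8, 60.7, 65.8 and 47.5, and 0 of the 8 inducers tested were called.

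Of the 9 other neutrophil attractant receptors and makers, all were tested in macrophages and 1 rose, beside the same 0.684% of all genes. Ccr1, a receptor for several CC chemokines, was at 0.545, 0.813, 2.49 and 2.89 and rose by 1.81 (SE 0.26, edgeR adjusted p = 0.0412). The Ccr1 difference was 1.56 without control skin 1 and 2.21 without control skin 2, fits with a lone control library that cannot decide the call. None of the 8 of this list tested in neutrophils (0.0762% of all genes) or the 7 tested in monocytes (0.1%) was called. Among the 17 genes induced by tissue dissociation, 1 rose in neutrophils, where 0.0762% of all genes were called. At an unadjusted edgeR p under 0.05, 5 of the 17 were higher and 1 lower in neutrophils, beside 6.60% of all genes. Their median difference there was 0.43, beside 0.03 for all genes. In macrophages 3 were higher and 4 lower (12.04% of all genes), and in monocytes 6 were higher and 3 lower (10.9%). Hspa1b, an inducible heat shock protein, was at 2.09, 1.5, 13.3 and 11.9 in neutrophils and rose by 2.82 (SE 0.30, edgeR adjusted p = 0.0250). The Hspa1b difference was 2.73 without skin tumor 1 and 2.90 without skin tumor 2, fits with a lone tumor library that cannot decide the call. Hspa1a, its near-identical copy, was at 2.09, 0.992, 8.12 and 14.7 in neutrophils. Since these genes share sequence, reads may be split between them, and the part of handling stress in the chemokine levels was not tested. Fos, another gene of this list, was at 5.15, 8.70, 10.3 and 6.50 in neutrophils.

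With 0.0762%, 0.684% and 0.1% of all genes called in neutrophils, macrophages and monocytes, none was called there for the 10 NF-kB feedback genes, the RNA decay genes (7, 8 and 8 of 8 tested), the receptor signaling genes (12, 15 and 15 of 15) or the neutrophil maturation genes (8, 6 and 4 of 11). The same held for the other CXCR2 ligands (1, 2 and 1 of 4 tested), other chemokine receptors (1, 3 and 1 of 7) and the CXCR4 and CXCR3 ligands (2 of 4 in each). The median difference of these last ligands, over the 2 tested, was 4.69, 1.69 and 3.41, beside 0.03, 0.02 and 0.02 for all genes. This list joins the CXCR4 ligand Cxcl12 with CXCR3 ligands, and the median does not tell them apart. At an unadjusted edgeR p under 0.05, 1, 1 and 2 of the 2 tested were higher. The share of all genes there was 6.60%, 12.04% and 10.9%. In cDC2 the 2 tested were called higher, where 7.33% of all genes were called. Mif, a cytokine that also binds CXCR2 and CXCR4, was at 1.84, 1.71, 4.90 and 4.90 in monocytes and differed by 1.36 without passing (edgeR adjusted p = 0.0527). Cxcr1, the second receptor of this group and also a marker of the class, stood at 0.483, 0.0640, 0.0725 and 0.0455 in neutrophils. These levels rest on few UMIs, near the floor of 3, and control skin 1 held only 13 neutrophils. Retnlg, a gene of mature neutrophils that helped to define the class, was at 7.24, 5.76, 4.31 and 3.50.

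For each gene, the genes most alike in pattern were ranked by Pearson correlation of log2 levels over 47 sums of a class in a library, among 7798 genes. The sums share 4 libraries and 16 classes, and the values are a description. Cxcl2 was most like Cd300ld (r = 0.896), Clec4d (0.894), Ninj1 (0.890), C5ar1 (0.890) and Clec4e (0.888). Cxcl3 was most like Clec4d (0.937), Trem1 (0.935), Clec4e (0.929), Csf3r (0.923) and A530013C23Rik (0.909). Clec4d and Clec4e, C-type lectin receptors of myeloid cells, thus stood in both lists. Cxcr2 was most like Wfdc21 (0.992), Gm29687 (0.990), Retnlg (0.989), Gm5483 (0.988) and AC110211.1 (0.987). Pf4 was most like Ms4a7 (0.930), C1qc (0.920), Trem2 (0.908), C1qa (0.897) and C1qb (0.887). Csf3r, Retnlg and the C1q genes were used to define the classes.
Cxcl1 was most like Igfbp4 (0.866), Akr1b8 (0.863), Cp (0.853), Ebf1 (0.843) and Mxra7 (0.837), and Cxcr4 was most like Gpr132 (0.827), Cd52 (0.815), Ccr2 (0.798), Cotl1 (0.796) and Fgl2 (0.781). Between the genes of the set, r was 0.833 for Cxcl2 and Cxcl3, 0.796 for Cxcl3 and Cxcr2, 0.638 for Cxcl2 and Cxcr2, and 0.264 for Cxcl1 and Cxcl2. Cxcl1, although the gene next to Cxcl2, thus shared less of its pattern with Cxcl2 than Cxcl3 did.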

How the data were processed

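The deposited files hold raw UMI counts per gene and cell barcode, which the authors made with Cell Ranger on mm10 (version 7.0.1 per the file headers, 7.1.0 per the submitters' notes); 4 libraries were measured, 2 per group. Whether intronic reads were counted is not given in the sources used here. Cells with at least 100 genes and 1000 UMIs, at most 15% mitochondrial UMIs and a complexity of 0.8 or more passed, the limits in the study's methods (50932896, 52784293, 73904272 and 34893543 UMIs in the files). Cells were gated on marker UMIs per 10,000. Neutrophils needed S100a8 and S100a9 at 30 or more and 1 further marker, macrophages the C1q genes at 25 or more and 2 further markers. The 15 cells in more than 1 gate stayed unassigned, and no doublet caller was run. The cells, genes and gene lists were chosen with earlier results of these data known.

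The study tested cells with a Wilcoxon test. Here the counts were summed per library and class and tested with edgeR 4.0.16 (quasi-likelihood, TMM, filterByExpr, R 4.3.3) over all genes of the class, where each library held at least 10 of its cells, at an adjusted p of 0.05. Langerhans cells, gamma-delta T cells, collagen-positive cells and keratinocytes were not fitted. Fits were tested on simulated data. Alternatives were DESeq2 1.42.0, another scaling, no filter, a block, other gates and cell filters, and each library left out. Named genes are the 6 genes in every class, the called genes of each list in neutrophils, macrophages or monocytes (at most 4 a list), and the 5 genes most like each. Other list genes were named after their values were seen, without a claim of change. Shares of cells were computed at full depth and after thinning to 1000 UMIs. Intervals and floors (3 UMIs) cover counting error only. Single-cell levels came from Python 3.11.15 with numpy 2.4.6, pandas 2.3.3 and scipy 1.17.1. One allele of the tumor line and one gene of the lists are not reported here.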

Additional observations from a re-analysis of the deposited data

Results flagged for a closer look

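Cxcl1 passed the test of a difference in tumor effect between macrophages and neutrophils, with no UMI in control neutrophils. The macrophage effect minus the neutrophil effect was -13.16 on the log2 scale (SE 2.57, edgeR adjusted p = 0.000599). Cxcl1 had 0 UMIs in the neutrophils of both control libraries and 25 UMIs in those of the tumors, so the size of the fitted value is set by those zeros and is no bound. Without skin tumor 1 it was -10.59, without skin tumor 2 -14.38 and without control skin 2 -9.90, and in none of these was it called. It was called only without control skin 1 (-13.87) among the fits that leave a library out.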

How the results depend on the processing

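The 2 class calls became 20 with no filter on low counts, 1 under DESeq2, 1 without the 2% of cells highest in the gene (an alternative chosen after seeing the data), and 1 to 24 as each library was left out (24 without skin tumor 2). Both original calls were kept with no filter and without skin tumor 2, 1 with the replicate block and DESeq2, and 0 with the 2% of cells left out, under stricter gates (2 calls), or without control skin 1, control skin 2 or skin tumor 1 (4, 1 and 2 calls). The call after the 2% of cells were left out was Cxcr4 in ILC2 (-2.48). Over all cells the count of 0 became 1 with no filter, 2 under DESeq2 and 0 to 1 as each library was left out. The interaction count of 1 ran from 0 to 1, with 0 without either tumor library. The replicate numbers are only shared names: deviations of same-numbered libraries correlated at -0.105 (cDC1) to 0.0947 (DETC), and the fit with the replicate block gave 4 class calls and 2 over all cells. In cDC1 the crossed pairing called 674 genes against 251.

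The 6 leading classes became 5 of 6 under stricter gates. Of the class results, 235 kept direction and side of the threshold, 27 passed it, 8 lost it and 19 changed sign. Neutrophil Cxcr4, near 0, changed sign with RLE size factors (0.0076), no filter (0.087), DESeq2 (0.048), no cell filter (0.000596), free RNA taken off (0.14) and trimming (0.12). Monocyte Cxcl3 did so with looser gates (0.15) and free RNA taken off (0.19), and ILC2 Cxcl2 with looser gates (1.49). For Cxcr4 the level taken off as free RNA cannot be told apart from the lymphoid cells' own Cxcr4. With a library left out, differences ran from -1.19 to 0.0058 (neutrophil Cxcr2), -0.22 to 0.17 (neutrophil Cxcr4), -1.22 to 0.21 (macrophage Pf4), -1.62 to 12.84 (macrophage Cxcl3), -2.80 to 1.74 (macrophage Cxcl1), -1.21 to 0.52 (monocyte Cxcl3) and -0.87 to 0.14 (monocyte Cxcl2). Over all cells they ran from -0.18 to 1.42 (Cxcr2), -0.31 to 0.54 (Cxcr4), -0.20 to 2.43 (Cxcl3) and -0.041 to 1.02 (Cxcl2), and for Cxcl2 in macrophages against cDC2 from -0.72 to 0.57. The lone library is then assumed to vary like the other group. The ILC2 Cxcl2 call was also lost with the block (-2.19), DESeq2 (-2.17) and without skin tumor 1 (-1.91), and the T cell Cxcl1 call with stricter gates (2.42). The causes were not tested.

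With no filter on low counts the genes called rose from 81 to 867 in macrophages, 3 to 51 in neutrophils, 9 to 440 in monocytes, 950 to 2072 in T cells, 367 to 602 in ILC2 and 0 to 346 in DETC. It gave 327 in NK cells (from 100), 1002 in cDC1 (from 251), 1484 in cDC2 (from 636), 705 in mDC (from 285) and 647 in regulatory T cells (from 315), and 29, 275 and 359 in the interactions with neutrophils, monocytes and cDC2 (from 48, 5 and 12). DESeq2 called 363 genes in macrophages, 118 in monocytes, 133 in DETC, 66 in NK cells, 58 in mast cells (from 110) and 122 in regulatory T cells. Stricter gates gave 3 in macrophages and 5 in neutrophils. With a library left out the count ran from 1 to 883 in macrophages, 0 to 79 in neutrophils, 0 to 407 in monocytes, 0 to 3089 in T cells and 558 to 6127 over all cells (from 4090). The neutrophil values rest on 13 cells in control skin 1.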
